A study of Mus musculus with 6 samples.

Results

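Classical cadherins and the catenins that bind their cytoplasmic tails were examined in mouse epidermal cells enriched for Merkel cells and in unselected epidermal cells. The set holds 8 of the 54532 genes in the count table: the cadherins Cdh1, Cdh2, Cdh3 and Cdh4, and the catenins Ctnna1, Ctnnb1, Ctnnd1 and Jup. The members were found by gene symbol. Cdh4 was picked by its counts, which differ greatly among libraries of the same group, so its spread is described here without a test, and the other members were chosen by family.

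Cadherins are calcium-dependent adhesion proteins that join neighbouring cells by binding the same cadherin on the next cell. Inside the cell, the tail holds p120-catenin and either beta-catenin or plakoglobin, and alpha-catenin links this complex to actin. In epidermis, E-cadherin (Cdh1) is found in all living layers, P-cadherin (Cdh3) is best known from basal cells and hair follicles, and adhesion through E-cadherin also holds Merkel cells, Langerhans cells and melanocytes among keratinocytes.

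The study profiled skin of C57BL/6 mice, male and female, at 4 weeks of age, with no treatment or engineered allele in either group. Dorsal epidermis was dissociated, and live cells (negative for the dye DAPI) were sorted in lots of 500 for Smart-seq2, which amplifies full-length cDNA from little RNA. For the NCAM-enriched group, 3 libraries were made from cells selected with beads and an antibody to polysialylated NCAM, a surface protein of Merkel cells, and for bulk skin 3 were made from cells taken without that selection, which can include Merkel cells. Neither the labels nor the methods say whether the 3 libraries of a group came from separate animals, so the p-values measure only the spread between these libraries.

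Library totals ran from 1343190 to 4481830 counts, and 1 count was worth 0.216 to 0.773 normalised CPM (counts relative to the TMM-adjusted library size). The 9 Merkel cell markers summed to 1529, 1602 and 451 CPM in NCAM-enriched libraries 1 to 3 and to 132 to 176 CPM in bulk skin. Other cell types moved with the groups too. The 7 suprabasal keratinocyte markers summed to 27968, 12639 and 14133 CPM against 1003 to 1336, the 6 T cell markers to 37.2 to 54.9 against 2882 to 3109, and the 6 Langerhans and myeloid markers to 53.3 to 343 against 10314 to 17710. NCAM-enriched library 2 stood apart in the 6 fibroblast markers, at 33003 CPM against 363 and 41.7 in the other NCAM-enriched libraries and 10356 to 18198 in bulk skin. NCAM-enriched library 3 stood apart in basal keratinocyte markers (30792 CPM against 7129 and 9649, with 11854 to 16282 in bulk skin) and in hair follicle markers (28795 CPM against 6259 and 12109, with 1981 to 2633 in bulk skin). Krt17 and Krt79 made up most of the hair follicle sum (17761 and 10334 CPM in library 3). Krt17 was called higher (log2 fold change 3.15, edgeR adjusted p = 0.0437), and Krt79 was not called (3.24, edgeR adjusted p = 0.0691). Lgr6 of the same list was called lower (33.9 ± 9.30 against 203 ± 41.2 CPM, SD, n = 3, edgeR adjusted p = 0.0195). Lgr5 and Lhx2 had log2 fold changes of -0.50 and -0.64. Of the 7 tested markers of this list, 4 lay above 0 and 3 below. The remaining lists (melanocyte, endothelial, Schwann cell and skeletal muscle) stayed between 0 and 266 CPM in every library. Melanocyte and Schwann cell sums overlapped between the groups. Endothelial markers summed to 10.8 to 14.5 CPM with NCAM enrichment against 56.2 to 105 CPM in bulk skin. Skeletal muscle markers summed to 266, 160 and 7.66 CPM against 0 to 1.10, mostly from Acta1, which was called higher (edgeR adjusted p = 0.0370). How far these differences in cell type contributed to the results below was not tested, and in these pooled cells fewer cells of a type cannot be told from less RNA per cell.

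Cdh4 encodes R-cadherin, which is best known from retina and brain. It lies on chromosome 2 (GRCm38, 179442431 to 179899373, plus strand), with 7257 exonic bases. Cdh4 had 33936 counts in NCAM-enriched library 1, 126 in library 2 and 30725 in library 3. In bulk skin it had 42 counts in library 1, 26537 in library 2 and 47 in library 3. High and low libraries therefore occurred in both groups: 2 NCAM-enriched libraries and 1 bulk skin library were high, and the rest were low.

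In the high libraries Cdh4 was among the most abundant genes of the whole table. It ranked first in NCAM-enriched library 1 with 1.70% of all counts, at rank 6 in NCAM-enriched library 3 with 0.809% and at rank 5 in bulk skin library 2 with 0.592%. In the low libraries it took 0.00938% (NCAM-enriched library 2), 0.00126% (bulk skin library 1) and 0.00136% (bulk skin library 3). After scaling, the levels were 18032, 97.4 and 8719 CPM in NCAM-enriched libraries 1 to 3, against 13.0, 5737 and 12.9 CPM in bulk skin libraries 1 to 3. The highest library thus exceeded the lowest by 185-fold within the NCAM-enriched group and by 445-fold within bulk skin.

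No other tested gene had such a spread in both groups. Among the 13157 genes that passed the filter on low counts, and with 0 counts set to 1, Cdh4 was the 1 gene whose highest and lowest library differed by at least 100-fold within each group, as it was with library size alone as the scale. At a threshold of 50-fold there were 17 such genes, at 20-fold 147 and at 10-fold 464. The gene with the next largest spread in both groups, Cd300c2, reached 66.8-fold with at most 59 counts in any library, so its spread came from far fewer reads. This ranking is what Cdh4 was picked on and is given as a description.

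Within bulk skin the spread rested on 1 library. Without bulk skin library 2 the coefficient of variation of Cdh4 there was 0.00842, against 1.72 with it. In the NCAM-enriched group it was 0.492 without library 2 and 1.002 with it. The low bulk skin libraries, at 13.0 and 12.9 CPM, lay close together, below the 97.4 CPM of NCAM-enriched library 2.

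**Figure D1:**
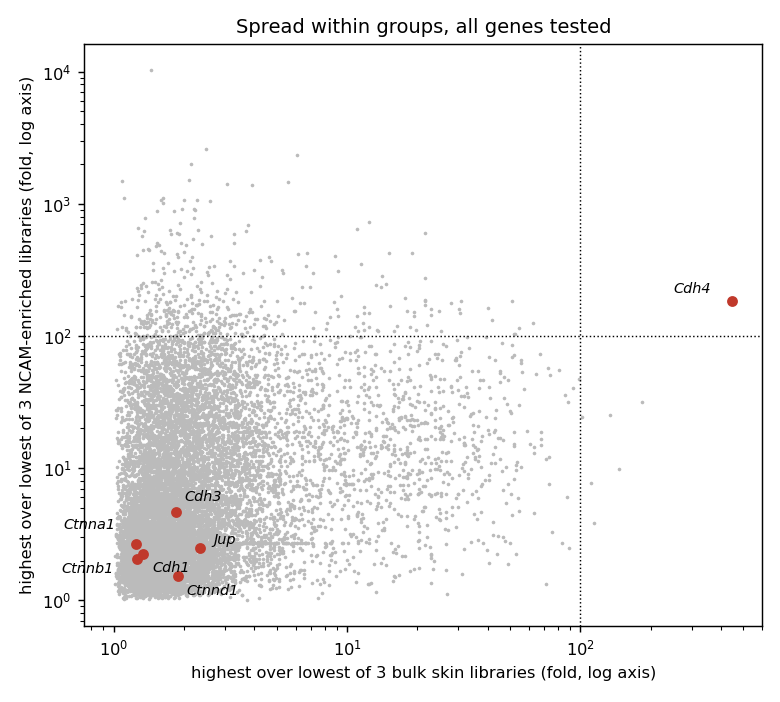
Spread within groups for the 13157 genes tested (grey points) and for the 7 members among them (red points). The horizontal axis gives the highest over the lowest of the 3 bulk skin libraries and the vertical axis the same for the 3 NCAM-enriched libraries, both as folds on log axes with 0 counts set to 1. Dotted lines mark 100-fold, and Cdh4, at 445-fold and 185-fold, is the 1 point past both.

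Sharing of reads with another annotated gene was looked for at the Cdh4 locus. Of the 7188 different stretches of 50 bases in its GENCODE transcripts, 0 also occurred in a transcript of another gene. Its exons overlapped no other gene, and the 1 gene annotated within its introns, the pseudogene Gm14300, had 1 count over all 6 libraries. Counts per gene do not show where along a gene the reads lie, so whether they covered the Cdh4 transcript or a part of it was not tested.

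The genes with a pattern most like Cdh4 over the 6 libraries were Diaph1, Grpel2, Olfm2, Otub1 and Scamp2, the 5 highest of 10669 tested genes whose mean reached 10 CPM (Pearson's r of log2 CPM 0.995, 0.983, 0.977, 0.972 and 0.972). Drawn from so many genes over 6 libraries of 2 groups, these values are a description. None of these 5 genes spread over 100-fold in either group. Diaph1, a formin that builds actin filaments, had 394, 179 and 681 counts in NCAM-enriched libraries 1 to 3, against 369, 863 and 451 in bulk skin. These counts are not scaled for library total, as the log2 CPM behind r are, and Diaph1 spread far less than Cdh4. Olfm2, an olfactomedin, had 132, 0 and 58 counts against 0, 26 and 0, so it too was counted in the same 3 libraries, at far lower counts.

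Cdh4 changed the make-up of the whole set in those libraries. It accounted for 80.2% and 60.5% of the counts of the 8 members in NCAM-enriched libraries 1 and 3 and for 73.3% in bulk skin library 2, against 3.89%, 0.910% and 0.806% in NCAM-enriched library 2 and bulk skin libraries 1 and 3. Since 1 gene at 1.70% of a library can lower all others, the comparison of the groups was run again with Cdh4 removed from the table. The other members kept their values: Jup, for example, had a log2 fold change of 2.23 in either fit.

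**Figure D2:**
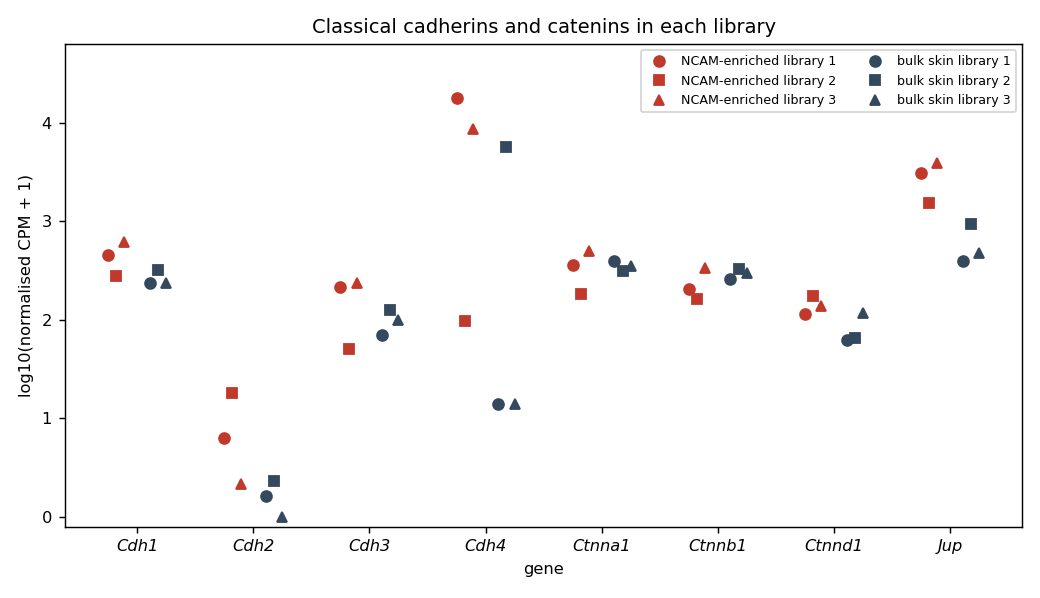
Level of each classical cadherin and catenin in each of the 6 libraries, as log10 of normalised CPM plus 1. Red symbols are NCAM-enriched and dark symbols bulk skin libraries, with the library number given by the shape. Cdh4 splits into 3 high and 3 low libraries across both groups, and Jup is the member whose NCAM-enriched libraries all lie above bulk skin among the 7 that were tested.

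E-cadherin had the highest level of Cdh1, Cdh2 and Cdh3 in every library. Cdh1 (chromosome 8, 106603351 to 106670246, plus strand) had 453, 276 and 621 CPM in NCAM-enriched libraries 1 to 3, from 852, 357 and 2190 counts. In bulk skin it had 238, 316 and 238 CPM, from 766, 1464 and 869 counts. The groups overlapped, since NCAM-enriched library 2 lay below bulk skin library 2. The means were 450.0 ± 173 (SD, n = 3) and 264 ± 45.3 CPM, and the log2 fold change of 0.77 ± 0.40 (SE) was not called (edgeR quasi-likelihood adjusted p = 0.343). Without NCAM-enriched library 2 the coefficient of variation of Cdh1 in that group fell from 0.384 to 0.222.

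P-cadherin followed E-cadherin in the order of libraries within each group. Cdh3, the neighbour of Cdh1 on chromosome 8 (106510891 to 106557297, plus strand), had 213, 50.2 and 236 CPM in NCAM-enriched libraries 1 to 3. Bulk skin libraries 1 to 3 had 68.6, 126 and 99.5 CPM. NCAM-enriched library 2 was the lowest of all 6 libraries, and the other NCAM-enriched libraries were the highest. The log2 fold change was 0.76 ± 0.57 (SE, edgeR adjusted p = 0.531), which does not exceed the spread between libraries.

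N-cadherin, the cadherin of neural and mesenchymal cells, was near the limit of detection. Cdh2 (chromosome 18, 16588877 to 16809246, minus strand) had 10, 22 and 4 counts in NCAM-enriched libraries 1 to 3, against 2, 6 and 0 in bulk skin, and it did not pass the filter on low counts. Its levels were 5.31, 17.0 and 1.14 CPM against 0.621, 1.30 and 0. The highest value fell in NCAM-enriched library 2, the library in which the fibroblast markers summed to 33003 CPM. Those markers summed to 363 and 41.7 CPM in NCAM-enriched libraries 1 and 3. In bulk skin they summed to 10356 to 18198 CPM, with Cdh2 at 1.30 CPM or less. The part of fibroblasts in the Cdh2 count was not tested. Counts pooled over each group came to 36 against 8, and the ratio of 7.72 (95% counting interval 3.53 to 19.2) covers counting error only, not the spread between libraries.

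Scaled by exonic length, Cdh1 made up most of the pool of Cdh1, Cdh2 and Cdh3 in all 6 libraries. Its share was 66.8%, 81.6% and 71.6% in NCAM-enriched libraries 1 to 3, against 76.8%, 70.5% and 69.6% in bulk skin libraries 1 to 3. Cdh3 held nearly all of the rest, from 15.5% in NCAM-enriched library 2 to 32.8% in NCAM-enriched library 1. Cdh2 held at most 2.85%, in NCAM-enriched library 2, and at most 0.444% in the others. The log2 ratio of Cdh3 to Cdh1 counts within a library was -1.64 ± 0.71 (SD, n = 3) with NCAM enrichment and -1.46 ± 0.29 without, a difference of -0.19 (exact two-sided permutation p = 0.8, adjusted p = 0.8 over 4 ratios).

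Plakoglobin showed the largest difference of the 6 members compared by the test. Jup, which serves desmosomes as well as cadherin junctions, lies on chromosome 11 (100368958 to 100397763, minus strand). It had 5831, 1999 and 13637 counts in NCAM-enriched libraries 1 to 3, against 1284, 4327 and 1743 in bulk skin. These were 3098, 1544 and 3870 CPM against 399, 935 and 478 CPM, so every NCAM-enriched library lay above every bulk skin library. Groups with no overlap and a higher NCAM-enriched level were found for 11.1% of all genes tested. The mean of 2838 ± 1184 CPM (SD, n = 3) was 4.70 times that of bulk skin, 604 ± 289.7.

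By edgeR the log2 fold change of Jup, 2.23 ± 0.55 (SE), had an adjusted p of 0.0670 and was not called at 0.05. Over 14 alternatives the adjusted p ran from 0.000291 to 0.286 and the log2 fold change from 1.88 to 2.65. Jup was called higher by DESeq2 (adjusted p = 0.00332), by limma-voom (0.00821), by edgeR with every gene of 1 count or more kept (0.000291) and by edgeR without NCAM-enriched library 2 (0.0144). The suprabasal keratinocyte markers, whose cells are rich in desmosomes, moved with Jup between the groups at 12639 to 27968 against 1003 to 1336 CPM, and their part in the difference was not tested.

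Beta-catenin, the relative of plakoglobin that also acts in Wnt signalling, did not follow it. Ctnnb1 (chromosome 9, 120929216 to 120960507, plus strand) had 202, 163 and 337 CPM in NCAM-enriched libraries 1 to 3, against 261, 328 and 300.2 CPM in bulk skin. NCAM-enriched libraries 1 and 2 lay below bulk skin and library 3 above it. The log2 fold change was -0.34 ± 0.38 (SE, edgeR adjusted p = 0.698). Annotated exons of Ulk4 and Mir7090 share 15.1% of its exonic bases, and Ulk4 had at most 6 counts in any library. Reads in the shared part may have been left uncounted, so the level of Ctnnb1 against other genes, Jup included, is uncertain.

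The balance of plakoglobin and beta-catenin was also read within each library, where the scale between libraries does not enter. Any Ctnnb1 reads left uncounted in its shared exons still enter this ratio, so its size in each library is uncertain. Jup had 15.3, 9.45 and 11.5 times the counts of Ctnnb1 in NCAM-enriched libraries 1 to 3, against 1.52, 2.85 and 1.59 times in bulk skin libraries 1 to 3. As log2 ratios the means were 3.57 ± 0.35 (SD, n = 3) and 0.93 ± 0.50, with no overlap and a difference of 2.64. The exact two-sided permutation p was 0.1, the smallest that 3 libraries against 3 can give, and 0.4 after adjustment over the 4 ratios. Leaving out 1 library at a time, the difference ran from 2.45 to 2.93. Per exonic length, Jup made up 92.5%, 88.4% and 90.3% of the pair in NCAM-enriched libraries 1 to 3, against 55.2%, 69.7% and 56.2% in bulk skin.

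**Figure D3:**
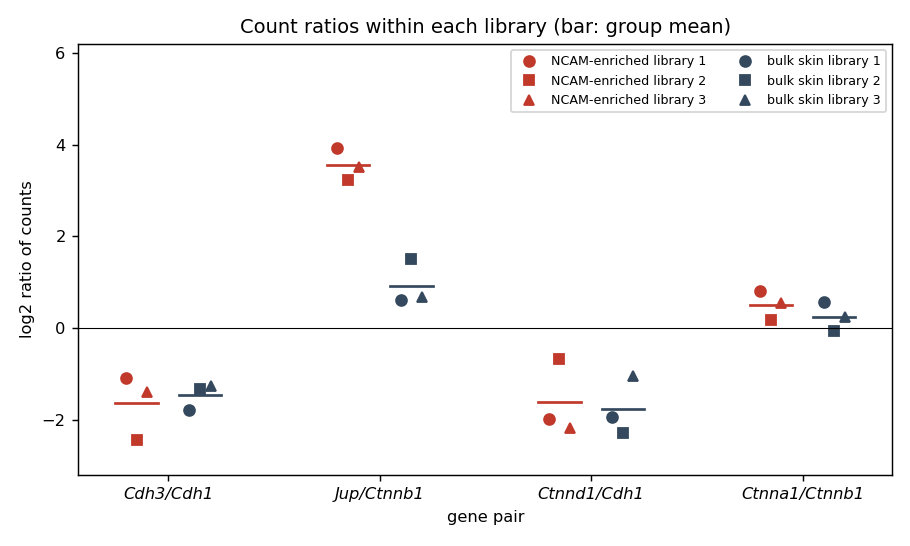
Log2 ratio of counts for 4 gene pairs within each library, with red symbols for NCAM-enriched and dark symbols for bulk skin libraries, the library number given by the shape and a bar at each group mean. The ratio of Jup to Ctnnb1 lies between 3.24 and 3.93 in the NCAM-enriched libraries and between 0.61 and 1.51 in bulk skin, while the groups overlap for the other pairs.

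The windows upstream of Jup and Ctnnb1 are shown because these relatives bind the same place on the cadherin tail and the ratio of their counts did not overlap between the groups. The sequences are RefSeq windows of 250 bases before the annotated start, read 5′ to 3′ on the strand of the gene in GRCm38.p6, at chr11:100397791-100398040 (minus strand) for Jup and chr9:120933150-120933399 (plus strand, the first of 2 listed starts) for Ctnnb1. Capitals mark matches on either strand to CCAAT, found in 33.8% of 32817 such windows, and to the GC box GGGCGG, found in 32.7%.
Jup: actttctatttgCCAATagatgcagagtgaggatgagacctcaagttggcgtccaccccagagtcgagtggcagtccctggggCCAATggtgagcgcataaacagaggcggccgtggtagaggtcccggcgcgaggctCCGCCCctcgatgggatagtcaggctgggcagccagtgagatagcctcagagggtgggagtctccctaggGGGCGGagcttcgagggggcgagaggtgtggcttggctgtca
Ctnnb1: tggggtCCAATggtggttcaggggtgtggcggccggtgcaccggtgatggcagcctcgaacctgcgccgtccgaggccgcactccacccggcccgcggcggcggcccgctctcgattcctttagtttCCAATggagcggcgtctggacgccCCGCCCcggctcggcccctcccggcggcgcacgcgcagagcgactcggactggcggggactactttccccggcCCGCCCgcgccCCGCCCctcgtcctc

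Both windows held 2 CCAAT matches, and they held 2 (Jup) and 3 (Ctnnb1) GC boxes. Neither of these windows had the letters TATAAA (in 12.4% of windows), though the window of the second listed Ctnnb1 start, not printed, held them 120 bases before that start. Neither had CACCTG, the E-box bound by Snail factors (17.2%), or AACCGGTT, a grainyhead site (0.116%). The GC content was 62.0% for Jup and 74.8% for Ctnnb1, against a median of 52.4% over all windows. These letters describe the windows and say nothing of which factors bind there.

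Alpha-catenin had like levels in both groups. Ctnna1, the link from beta-catenin to actin (chromosome 18, 35118859 to 35254779, plus strand), had 358, 184 and 494 CPM in NCAM-enriched libraries 1 to 3, against 390, 315 and 353 CPM in bulk skin. The NCAM-enriched libraries spanned the whole bulk skin range. Its log2 fold change was -0.03 ± 0.42 (SE, edgeR adjusted p = 0.981), and the sign turned to 0.26 without NCAM-enriched library 2 and to 0.01 without bulk skin library 1. The log2 ratio of Ctnna1 to Ctnnb1 was 0.52 ± 0.32 (SD, n = 3) against 0.25 ± 0.32 (exact two-sided permutation p = 0.5, adjusted p = 0.8).

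For p120-catenin, which keeps cadherins at the cell surface, the levels were lower. Ctnnd1 (chromosome 2, 84600071 to 84650765, minus strand) had 115, 174 and 137 CPM in NCAM-enriched libraries 1 to 3, against 61.8, 64.6 and 116 CPM in bulk skin. Bulk skin library 3 lay just above NCAM-enriched library 1, so the groups overlapped. The log2 fold change was 0.81 ± 0.41 (SE, edgeR adjusted p = 0.331). The annotated gene Gm28635 shares 61.2% of its exonic bases and was at 0 counts in every library, so reads there may have been left uncounted and the level of Ctnnd1 against other genes is uncertain. The log2 ratio of Ctnnd1 to Cdh1 was -1.61 ± 0.82 (SD, n = 3) with NCAM enrichment and -1.76 ± 0.65 without (exact two-sided permutation p = 0.7, adjusted p = 0.8).

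Over the 6 tested members other than Cdh4, edgeR called 0 higher and 0 lower, beside 1.04% of all 13157 genes called higher and 1.55% called lower. At an unadjusted p under 0.05 there was 1 member, Jup. DESeq2 called 1 higher (Jup) and 0 lower, beside 7.68% and 6.67% of the 16401 genes it gave an adjusted p. No member lay lower without overlap, against 19.3% of all genes tested. The median log2 fold change of these members was 0.77, with 4 above 0 and 2 below. Over all genes tested the median was -0.07, with 47.7% above 0.

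Levels per exonic length gave the order of the members within each group. Annotated neighbours share 61.2% of the exonic bases of Ctnnd1 and 15.1% of those of Ctnnb1. Reads there may have been left uncounted, so the places of Ctnnd1 and Ctnnb1 in this order are uncertain. In bulk skin Jup came first after Cdh4, at 93.8 ± 45.0 CPM per kilobase (SD, n = 3), followed by Cdh1 at 57.8 ± 9.90, Ctnnb1 at 57.1 ± 6.47 and Ctnna1 at 54.9 ± 5.84. Neighbours among these 4 differed by less than their spread. Cdh3 (22.4 ± 6.58), Ctnnd1 (11.0 ± 4.17) and Cdh2 (0.0793 ± 0.0804) came below them. In the NCAM-enriched group Jup stood at 441 ± 184 and Cdh1 at 98.4 ± 37.8, and each of the next members, Ctnna1 (53.7 ± 24.2), Ctnnb1 (45.1 ± 17.5), Cdh3 (37.9 ± 23.1) and Ctnnd1 (19.4 ± 4.07), differed from its neighbour by less than their spread. Cdh2 (0.969 ± 1.02) came last there too. Cdh4 has no fixed place in this order, since it ran from 13.4 to 2485 CPM per kilobase in the NCAM-enriched group and from 1.78 to 790.5 in bulk skin.

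Other cadherins were few in these cells. Of 18 listed, 5 had no count in any library and 5 were tested. Of the 5 tested, edgeR called 0, beside 1.04% of all genes called higher and 1.55% lower. DESeq2 called 0 higher and 1 lower (Cdh17), beside 7.68% and 6.67% of all genes it gave an adjusted p. Only Cdh13 among the tested ones, T-cadherin, which has no cytoplasmic tail, was at a level like Cdh1, with 184, 179 and 476 CPM against 374, 345 and 339 (log2 fold change -0.33 ± 0.45 SE, edgeR adjusted p = 0.760). Cdh17, a cadherin best known from gut, was at 3 counts over the NCAM-enriched libraries against 198 over bulk skin, a pooled ratio of 0.0260 (95% counting interval 0.00531 to 0.0771; edgeR adjusted p = 0.0811). Cdh5, which marks endothelial cells, had 0 counts against 30 and did not pass the filter.

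Among 5 tested relatives of the catenins, edgeR called 0, beside 1.04% of all genes called higher and 1.55% lower. DESeq2 called Pkp4 higher and Ctnnd2 lower, beside 7.68% and 6.67% of all genes it gave an adjusted p. Pkp4, of the p120 family, had 230, 225 and 120 CPM in NCAM-enriched libraries 1 to 3, against 58.4, 61.6 and 73.2 in bulk skin, without overlap (log2 fold change 1.57 ± 0.39 SE, edgeR adjusted p = 0.0698). A higher NCAM-enriched level without overlap was found for 11.1% of all genes tested. Ctnnd2, delta-catenin, best known from neurons, went the other way, with 26.0, 46.4 and 8.23 CPM against 111, 93.6 and 116 (log2 fold change -2.01 ± 0.63 SE, edgeR adjusted p = 0.119).

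Nectins, which act beside cadherins at the same junctions, held 1 call. Of 20 nectins and junction adaptors tested, 1 rose, 0 fell and 19 were not called by edgeR, beside 1.04% and 1.55% of all genes. Of the 20, 16 lay above 0, beside 47.7% of all genes tested, with a median log2 fold change of 0.96. DESeq2 also called 1 higher and 0 lower, beside 7.68% and 6.67% of all genes it gave an adjusted p. The gene that rose was Nectin4 (chromosome 1, 171370099 to 171388598, plus strand), with 428, 278 and 419.7 CPM in NCAM-enriched libraries 1 to 3, against 2.48, 12.5 and 22.2 in bulk skin. Nectin4 rose by 4.91 ± 0.74 on the log2 scale (SE, edgeR adjusted p = 0.0173), but leaving out bulk skin library 1, 2 or 3 ended the call (adjusted p up to 0.136). Its log2 fold change was then 4.39, 4.87 and 5.57. Those fits called 0, 0 and 1 genes higher over the whole table, against 137 with all libraries. Pard3, a polarity protein of junctions, had 195 ± 78.4 against 73.3 ± 24.0 CPM (SD, n = 3; edgeR adjusted p = 0.119). The most abundant, Actn4, an actin cross-linker, had 677 ± 335 against 436 ± 61.5 CPM (edgeR adjusted p = 0.501).

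Regulators of cadherin transcription included 2 edgeR calls among 15 tested genes, both higher, beside 1.04% of all genes called higher and 1.55% lower. Of the 15, 11 lay above 0, beside 47.7% of all genes tested, with a median of 0.90. DESeq2 called 4 higher (Grhl1, Grhl3, Esrp1 and Ovol1) and 2 lower (Snai2 and Twist2). Over all genes it gave an adjusted p, DESeq2 called 7.68% higher and 6.67% lower. Grhl3, a grainyhead factor of the epidermal barrier, had 81.8, 113 and 149.5 CPM against 14.6, 20.3 and 24.9 (log2 fold change 2.52 ± 0.47 SE, edgeR adjusted p = 0.0332). Ovol1, a zinc finger factor of differentiating epithelium, had 54.2, 77.3 and 107 CPM against 16.1, 10.2 and 6.03 (2.88 ± 0.61, edgeR adjusted p = 0.0479). Neither group of libraries overlapped the other for Grhl3 or Ovol1. A higher NCAM-enriched level without overlap was found for 11.1% of all genes tested. Leaving out bulk skin library 1, 2 or 3, which ended nearly all calls higher in the table, or adding the replicate block ended both calls. Leaving out NCAM-enriched library 1 or 3 ended that of Ovol1 (edgeR adjusted p over these settings up to 0.244 for Grhl3 and 0.242 for Ovol1). Annotated neighbours share 22.0% of the exonic bases of Ovol1. Klf4, a factor of the epidermal barrier and the most abundant of the list, had 1116 ± 412 against 599.8 ± 63.5 CPM (SD, n = 3; edgeR adjusted p = 0.272). Twist2, a mesenchymal repressor, had 0 counts against 79, at least 15.4-fold lower with 3 counts taken as the group's floor (edgeR adjusted p = 0.0812), and Gm29100 shares 46.5% of its exonic bases.

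**Figure D4:**
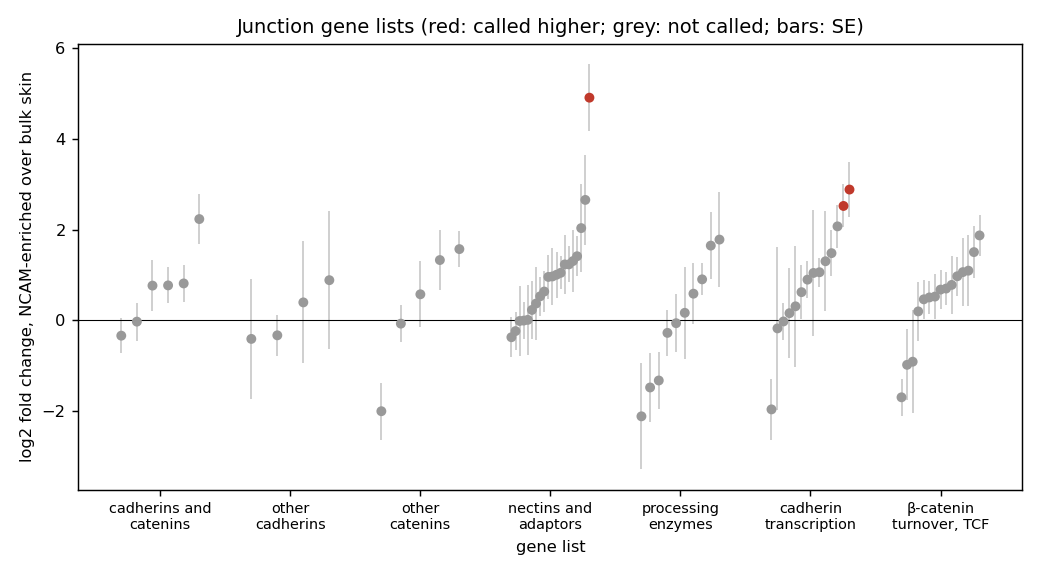
Log2 fold change of NCAM-enriched over bulk skin, with SE bars, for tested genes of 7 lists of junction genes, Cdh4 left out and genes with 3 or fewer counts in a group (Cdh17 and Twist2) not drawn. Red points are genes called higher by edgeR (Nectin4, Grhl3 and Ovol1) and grey points genes not called, among them Jup at 2.23 at the top of the first list.

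Neither the enzymes that process cadherins nor the genes of beta-catenin turnover held a call by edgeR. Over all genes tested, edgeR called 1.04% higher and 1.55% lower. Of 10 processing enzymes, 5 lay above 0 and 5 below (median 0.05), beside 47.7% of all genes tested above 0, and DESeq2 called 0. Adam15, a shedding protease, had 81.2 ± 54.2 against 25.9 ± 15.2 CPM (SD, n = 3; edgeR adjusted p = 0.267). Furin, which cuts the cadherin prodomain, had 72.8 ± 65.3 against 204 ± 114 CPM (edgeR adjusted p = 0.342). Of 15 genes of beta-catenin turnover and TCF factors, 12 lay above 0 (median 0.68), beside the same 47.7%. DESeq2 called Bcl9l higher and Tcf7 lower, beside 7.68% and 6.67% of all genes it gave an adjusted p. Bcl9l, a coactivator of beta-catenin, had 318, 314 and 366 CPM against 41.9, 115 and 115 (edgeR adjusted p = 0.0653). Tcf7, a TCF factor also abundant in T cells, had 45.2, 59.5 and 30.1 CPM against 138, 165 and 134 (edgeR adjusted p = 0.0661), in libraries where T cell markers moved the same way. Csnk1a1, a kinase that primes beta-catenin for breakdown, had 685 ± 143 against 422 ± 61.2 CPM (edgeR adjusted p = 0.336).

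Of 3 receptors by which lymphocytes bind E-cadherin, 2 were tested and edgeR called 1 lower, beside 1.55% of all genes tested. DESeq2 called 2 lower, beside 6.67% of all genes it gave an adjusted p. Itgae, the integrin chain that pairs with Itgb7 to bind E-cadherin, had 2, 3 and 34 counts in NCAM-enriched libraries 1 to 3, against 706, 1041 and 841 in bulk skin. It fell by 5.56 on the log2 scale (SE 0.75, edgeR adjusted p = 0.0123), and the log2 fold change was -5.63, -5.61 and -5.59 without bulk skin library 1, 2 and 3, where it was no longer called (edgeR adjusted p up to 0.101). Those fits called 13, 21 and 16 genes lower over the whole table, against 204 with all libraries. Itgb7 had 4.36 ± 6.82 against 68.4 ± 4.69 CPM (SD, n = 3) and was not called (edgeR adjusted p = 0.112), and Klrg1, a receptor of cytotoxic lymphocytes for E-cadherin, had 0 counts against 59 and did not pass the filter. The 6 T cell markers moved in the same direction, at 37.2 to 54.9 against 2882 to 3109 CPM.

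By pattern over the 6 libraries, the genes most like Cdh1 were Usp6nl, Coro1c, Bok, Abcf2 and Ypel2, with Pearson's r of log2 CPM of 0.994, 0.986, 0.986, 0.985 and 0.985 among 10669 genes. All were highest in NCAM-enriched library 3 by counts, as was Cdh1. Coro1c, a coronin of the actin cytoskeleton, had 256, 90 and 599 counts in NCAM-enriched libraries 1 to 3, against 160, 379 and 182 in bulk skin. As for Cdh4, the best of so many genes over 6 libraries is a description.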

How the data were processed

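Smart-seq2 libraries were made from 6 lots of 500 sorted cells, 3 NCAM-enriched and 3 bulk skin. What the authors deposited are raw counts of reads for each gene. Per the methods, the authors clipped adapters and polyA (bbduk), removed abundant sequences (bbmap), aligned to GRCm38 with STAR and counted with featureCounts; for the annotation release and strand setting the sources used here give nothing. Positions, exonic length and overlaps came from GENCODE M21, which held 54495 of the 54532 gene IDs. Smart-seq2 does not mark strand.

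Groups came from the labels. Genes were filtered with filterByExpr, scaled with TMM factors and tested with the quasi-likelihood F-test of edgeR 4.0.16 (R 4.3.3) over 13157 genes with Benjamini-Hochberg adjustment, and called at 0.05. The SE is the absolute log2 fold change over the square root of F. Log2 CPM add 0.5 counts, as do ratios within libraries, which were compared by exact permutation. Counting intervals (95%) and floors (3 counts for a group) allow for counting error alone. The fit was tested on simulated data. Alternatives were DESeq2 1.42.0, limma-voom (limma 3.58.1), other factors and filters, a replicate block, robust dispersion, leaving out each library and, added after seeing the data, leaving out Cdh4. Members and lists were chosen with earlier results of these data known. Named genes were the members, the 2 genes of smallest p and the most abundant uncalled gene of each list, and the 5 genes nearest in pattern to Cdh4 and Cdh1; Cd300c2, Cdh5, Twist2, Klrg1, the hair follicle markers and overlapping genes were added after their values were seen. The result of 1 gene that this rule names is not reported here. RefSeq windows were listed for Jup, Ctnnb1 and Ctnnd1.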

Additional observations from a re-analysis of the deposited data

How the results depend on the processing

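Among the 6 tested members other than Cdh4, the count called higher rose from 0 to 1 under DESeq2, limma-voom or edgeR on every gene counted at least 1 time, and ran from 0 to 1 without a single library (1 without NCAM-enriched library 2); in each case the gene was Jup. The count called lower was 0 under all 14 alternatives. With the replicate block the counts were 0 and 0, and Jup had a log2 fold change of 2.27 (adjusted p = 0.162); same-numbered libraries had deviations from their group means with r = 0.0241, -0.00309 and 0.000917, so these were not treated as pairs. The fold change of Ctnna1 turned to 0.26 without NCAM-enriched library 2 and to 0.01 without bulk skin library 1, in a range of -0.44 to 0.26 without a single library. The ratio of Cdh3 to Cdh1 (difference -0.19) turned to 0.018 with pooled counts and ran from -0.46 to 0.22 without a single library, and that of Ctnnd1 to Cdh1 (0.15) turned to -0.13 with pooled counts and ran from -0.32 to 0.51. The cause was not tested. The other members kept their sign under all alternatives. Over all genes the median was -0.07, against -0.37 (limma-voom), -0.36 (block) and 0.17 (DESeq2). Calls over all genes were 137 higher and 204 lower, against 1259 and 1094 (DESeq2), 351 and 849 (limma-voom), 769 and 741 (every gene counted), 50 and 92 (block), and 0 to 1099 and 13 to 733 without a single library. Cdh2, at 44 counts in all, was too low to test.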
